A study of Homo sapiens with 7 samples.

Results

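The 9 genes described here belong to the MAGE family, and they fall into 4 type I members (MAGEA3, MAGEA6, MAGEC1 and MAGEC2) and 5 type II members (MAGED1, MAGED2, MAGEE1, MAGEF1 and MAGEH1). They were taken by symbol from a table of 60675 gene identifiers, which holds 37 genes of the family. RNA sequencing measured their transcripts in MDA-MB-231, an established human triple-negative breast cancer line, whose labelled cell type is TNBC. The siDEPDC1 group, labelled DEPDC1 KD, was transfected with siRNA against DEPDC1 (n = 4 libraries), and the siCTL group, labelled DEPDC1 WT, received a control siRNA (n = 3 libraries). Both groups were transfected with Lipofectamine RNAiMAX and had their medium changed after 8 h, and RNA was taken on day 2. DEPDC1 encodes a DEP domain protein that is most abundant in dividing cells. The sources used here give neither the siRNA sequences nor the number of duplexes in each reagent. The labels do not say whether replicates were separate cultures, so each p-value speaks of library-to-library spread alone, and that spread could be technical.

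The 9 genes were listed with their response to siDEPDC1 already known: of the 12 family genes with enough counts to test, they are the 9 that passed an adjusted p of 0.05. Their own changes are therefore given as a description, with values and errors and no separate test. "Rose" and "fell" below mark genes past a Benjamini-Hochberg adjusted p of 0.05 by edgeR's quasi-likelihood test over all 16583 genes tested. Levels are CPM, counts scaled to a common library size with TMM factors.

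MAGE proteins share a MAGE homology domain through which many of them bind RING-type E3 ubiquitin ligases and steer those ligases to substrates. Type I genes lie on the X chromosome, are normally restricted to the germ line, are kept silent in other tissues largely by DNA methylation of their promoters, and are switched on in many tumours, which makes them cancer-testis antigens. Type II genes are expressed in many tissues, and not all are X-linked. MAGEA3 and MAGEA6 are neighbouring near-copies that bind TRIM28 and are known to direct it to AMPK alpha 1. MAGEC2 also binds TRIM28, and MAGEC1 is a larger relative carrying a long repeat region.

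Library totals were 7690583 to 13483305 counts in siDEPDC1 and 11704246 to 15360409 counts in siCTL. DEPDC1 had 15.3, 12.7, 13.4 and 11.9 CPM in siDEPDC1, against 114, 119 and 120 CPM in siCTL (8.89-fold lower, log2 fold change -3.15, SE 0.0753), which matches the labels. Both siCTL replicate 1 and siCTL replicate 2 stood apart in the epithelial keratins KRT5 (84 and 77 counts) and KRT6A (92 and 72 counts), while all 4 siDEPDC1 libraries and siCTL replicate 3 had 0 counts of both. The values of MAGE genes against siCTL replicate 3 alone are given with the results. Of the 6 markers listed as present in this line, VIM, CD44 and AXL did not pass the test, and EGFR (log2 fold change -0.28), CAV1 (-0.42) and ZEB1 (-0.36) fell. Of 6 markers listed as absent or low, 3 could be tested, and the epithelial cadherin CDH1 fell. It had 2, 5, 3 and 6 counts in siDEPDC1, against 21, 14 and 10 counts in siCTL (log2 fold change -1.55, SE 0.405, edgeR adjusted p 0.003), the lowest siCTL value being in replicate 3. Markers of leukocytes, endothelium, fibroblasts and germ cells, 13 in all, summed to 50.3 to 58.0 CPM in siDEPDC1 and 36.7 to 37.1 CPM in siCTL. Of the 5 that could be tested, COL1A1 (1.22) and CD14 (0.60) rose and none fell. The CD14 call was lost in 7 alternatives, though 1 fit is counted there under 2 names. The fibroblast marker DCN had 0 counts in every library, and the germ cell markers DDX4 and DAZL had at most 1 count in a library. Other markers of these cells were present in every library and did not pass the test. The germ cell marker SYCP3 had 36 to 58 counts, the fibroblast marker PDGFRB 36 to 65 and the endothelial marker PECAM1 83 to 217. The part of these markers and keratins in the MAGE values was not tested.

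Some sequences come first, chosen because they set apart the type I genes that fell from those that rose or show how near the falling pair are to each other. The first is a site in the 3' UTR. An earlier examination of these same data singled out the 7-base word GATAACT as one whose carriers were lower in siDEPDC1, so it was chosen on this contrast and its link to lower values is a description. In the annotated transcripts kept here, 1 per gene, it occurred in the 3' UTR of 2 of the 9 genes, MAGEA3 and MAGEA6, starting at base 423 of the UTR in each. The closest stretch of MAGEA12, which lies between them, has 5 of the 7 bases in place, and its kept transcript does not hold the word. The 29-base windows below are from GENCODE 29 transcripts (GRCh38), written 5' to 3' along the transcript, with the word or its aligned bases in capitals.
MAGEA3, chrX:152702189-152702217, plus strand: aacatacatgaGATAACTcaagaaatcaa
MAGEA6, chrX:152766266-152766294, minus strand: aacatacatgaGATAACTcaagaaatcaa
MAGEA12, chrX:152737517-152737545, plus strand: aaaatacatgaGATAAAGacctcaagaag

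Across 12194 tested genes with a searchable 3' UTR of at least 50 bases, 905 (7.42%) carried the word. Of those carriers 54.5% fell and 7.96% rose in siDEPDC1, with a median log2 fold change of -0.25. Of the 11289 genes without it, 17.6% fell and 19.6% rose, with a median of 0.013. A longer 3' UTR has more room for any such word. Carriers and other genes were not matched for UTR length, and its part in the contrast was not tested. The remaining 7 MAGE genes listed here, which all rose, lacked the word in the kept transcript, as most searched genes did in the 3' UTR. Their kept 3' UTRs ran from 135 bases (MAGED2) to 555 bases (MAGEC1), against 559 in MAGEA3 and MAGEA6. MAGEA3 and MAGEA6 are near-copies with the same window, so they amount to 1 sequence rather than a pair of independent carriers. Whether the site bears on their level was not tested.

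The second set shows how hard MAGEA3 and MAGEA6 are to tell apart by sequencing. The kept transcripts of both genes are 1762 bases long and differ at 25 bases (98.6% identity), and their 942 coding bases differ at 18 (98.1% identity). Of the 1663 windows of 100 bases in the MAGEA3 transcript, the read length used, 600 (36.1%) occur whole in that of MAGEA6. Some of these windows also occur in MAGEA2 or MAGEA2B transcripts. Reads were paired, so a mate can also place a fragment, and the share of fragments that fit both genes was not computed. How the authors' counter treated reads that fit both genes is not stated, so each gene's own value is uncertain and their sum is given too. Their 60 coding bases with the most differences, positions 583 to 642 counted from the A of the start codon, are shown with the 4 differing bases in capitals. The substitutions, MAGEA3 base first, are G595A, C601T, G613A and G632A.
MAGEA3: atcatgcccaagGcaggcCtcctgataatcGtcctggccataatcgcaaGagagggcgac
MAGEA6: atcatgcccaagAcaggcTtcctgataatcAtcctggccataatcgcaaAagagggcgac

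The kept transcripts of the other 7 genes, and of MAGEA12, shared no 100-base window with another annotated MAGE or CSAG transcript. The rest of the genome was not searched. MAGEA12 was 86.0% identical to MAGEA3 over the aligned transcripts.

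The third set is the promoters of the type I genes, shown because the pair that fell and the pair that rose each moved together. RefSeq promoter entries (GRCh38.p14, 250 bases before to 50 after each start) were found for 8 of the 9 genes, MAGEH1 being the one without. The entries of MAGEA3 and MAGEA6 were identical over all 300 bases. Those of MAGEC1 and MAGEC2 were 60.1% identical to each other, and that of MAGEA3 was 43.2% identical to MAGEC1 and 43.0% to MAGEC2. The 250 bases before each start are printed 5' to 3' on the gene's strand, with ETS-type cores in capitals (CCGGAA or CCGGAT on either strand).
MAGEA3 (and MAGEA6), chrX:152698544-152698793, plus strand: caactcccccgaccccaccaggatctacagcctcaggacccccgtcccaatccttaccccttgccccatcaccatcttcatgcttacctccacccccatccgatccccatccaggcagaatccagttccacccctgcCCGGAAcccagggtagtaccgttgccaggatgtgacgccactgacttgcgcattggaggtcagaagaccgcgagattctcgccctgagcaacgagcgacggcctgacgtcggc
MAGEC1, chrX:141903644-141903893, plus strand: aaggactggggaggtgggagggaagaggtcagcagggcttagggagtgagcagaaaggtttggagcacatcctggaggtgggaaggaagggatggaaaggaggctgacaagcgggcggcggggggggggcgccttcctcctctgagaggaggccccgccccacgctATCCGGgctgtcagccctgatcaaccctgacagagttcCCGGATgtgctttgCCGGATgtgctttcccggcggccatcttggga
MAGEC2, chrX:142205291-142205540, minus strand: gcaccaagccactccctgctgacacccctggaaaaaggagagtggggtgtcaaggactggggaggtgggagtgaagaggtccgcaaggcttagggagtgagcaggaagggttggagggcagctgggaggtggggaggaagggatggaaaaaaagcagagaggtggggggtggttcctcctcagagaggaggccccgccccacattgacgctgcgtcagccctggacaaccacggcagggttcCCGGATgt

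Over the full 300 bases and both strands, CCGGAT occurred 3 times in the MAGEC1 promoter (first bases at -84, -46 and -32 from the start) and once in that of MAGEC2 (-8), and in none of the other entries for these genes. It is held by 7.12% of the 35116 promoters in the table. CCGGAA occurred once in MAGEA3 and MAGEA6 (-113), but also once each in MAGED1 and MAGED2 and 2 times in MAGEF1, which rose, and 17.2% of promoters hold it. GCCATCTT, a YY1-type word held by 2.89% of promoters, occurred once in MAGEC1 (-12) and once in MAGEC2 (13 bases into the transcript) and in no other entry for these genes. GGGCGG, the SP1-type GC box (45.0% of promoters), occurred in both MAGEC genes and not in the MAGEA pair. It also occurred in entries of MAGED1, MAGED2, MAGEE1 and MAGEF1. TGACG, a core of CRE-type sites (24.6%), occurred in all 4 type I promoters and in entries of MAGED1, MAGED2 and MAGEF1. CpG dinucleotides numbered 19 in MAGEA3 and MAGEA6, 14 in MAGEC1 and 10 in MAGEC2, against a median of 14 over all promoters. No matches of different motifs overlapped in these 4 promoters, and a match describes letters, not a bound site.

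The MAGEA pair fell in siDEPDC1 while the MAGEC pair rose. MAGEA6 (X:152766136-152769747, minus strand) had 6.65, 7.73, 7.16 and 7.84 CPM in siDEPDC1, against 11.3, 13.8 and 14.9 CPM in siCTL. Every siDEPDC1 library was below every siCTL library. Means were 7.35 ± 0.551 CPM in siDEPDC1 and 13.4 ± 1.85 CPM in siCTL (SD), 1.80-fold lower (log2 fold change -0.85, SE 0.118). Against siCTL replicate 3 alone it was -1.01. In bulk RNA of this kind, fewer cells expressing a gene and less RNA per cell cannot be told apart.

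MAGEA3 (X:152698752-152702347, plus strand) had 2.05, 1.55, 1.69 and 0.98 CPM in siDEPDC1, against 2.80, 2.82 and 1.91 CPM in siCTL. The groups overlapped, since siCTL replicate 3 lay below siDEPDC1 replicate 1. Means were 1.57 ± 0.447 CPM in siDEPDC1 and 2.51 ± 0.519 CPM in siCTL (SD), 1.64-fold lower (log2 fold change -0.71, SE 0.243), from 11 to 21 counts a library in siDEPDC1 and 22 to 43 in siCTL. This call did not hold in every setting: the edgeR adjusted p was 0.021 with all libraries, 0.10 by DESeq2, and 0.65 against siCTL replicate 3 alone (log2 fold change -0.30). It also ended in the edgeR fit without siDEPDC1 replicate 2 (adjusted p 0.053), without siDEPDC1 replicate 4 (0.098), without siCTL replicate 1 (0.084) and without siCTL replicate 2 (0.10). In all, the MAGEA3 call was lost in 8 of the 15 alternatives that tested it. That count holds the fit without siDEPDC1 replicate 4 again, as the fit of replicates 1 to 3 without a block.

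Summed, MAGEA3 and MAGEA6 reached 8.71, 9.28, 8.86 and 8.82 CPM in siDEPDC1, against 14.1, 16.7 and 16.9 CPM in siCTL. The sum does not depend on how shared reads were split between the pair. It can still depend on how reads that also fit MAGEA2 or MAGEA2B were counted, and on whether shared reads were dropped. The sum had a log2 fold change of -0.83 (SE 0.105). It kept its call in all 16 alternatives run on it, from -0.91 to -0.79. Those hold the fit without siDEPDC1 replicate 4 again, as the fit of replicates 1 to 3 without a block. MAGEA6 supplied 76.4% to 88.9% of the pair's counts in siDEPDC1 and 80.2% to 88.7% in siCTL, ranges that overlap.

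MAGEC1 (X:141903894-141909388, plus strand) had 19.7, 19.0, 19.9 and 18.7 CPM in siDEPDC1, against 11.7, 9.65 and 10.6 CPM in siCTL. The siDEPDC1 libraries lay close together and well above all of the siCTL libraries. Means were 19.3 ± 0.565 CPM in siDEPDC1 and 10.7 ± 1.03 CPM in siCTL (SD), 1.81-fold higher (log2 fold change 0.86, SE 0.0976). It was also 0.86 against siCTL replicate 3 alone.

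MAGEC2 (X:142202345-142205290, minus strand) had 7.63, 6.19, 9.25 and 8.64 CPM in siDEPDC1, against 3.76, 3.15 and 4.08 CPM in siCTL. The groups did not overlap, although the siDEPDC1 libraries varied more among themselves than for MAGEC1. Means were 7.93 ± 1.34 CPM in siDEPDC1 and 3.66 ± 0.473 CPM in siCTL (SD), 2.14-fold higher (log2 fold change 1.10, SE 0.158). Against siCTL replicate 3 alone it was 0.93.

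**Figure D1:**
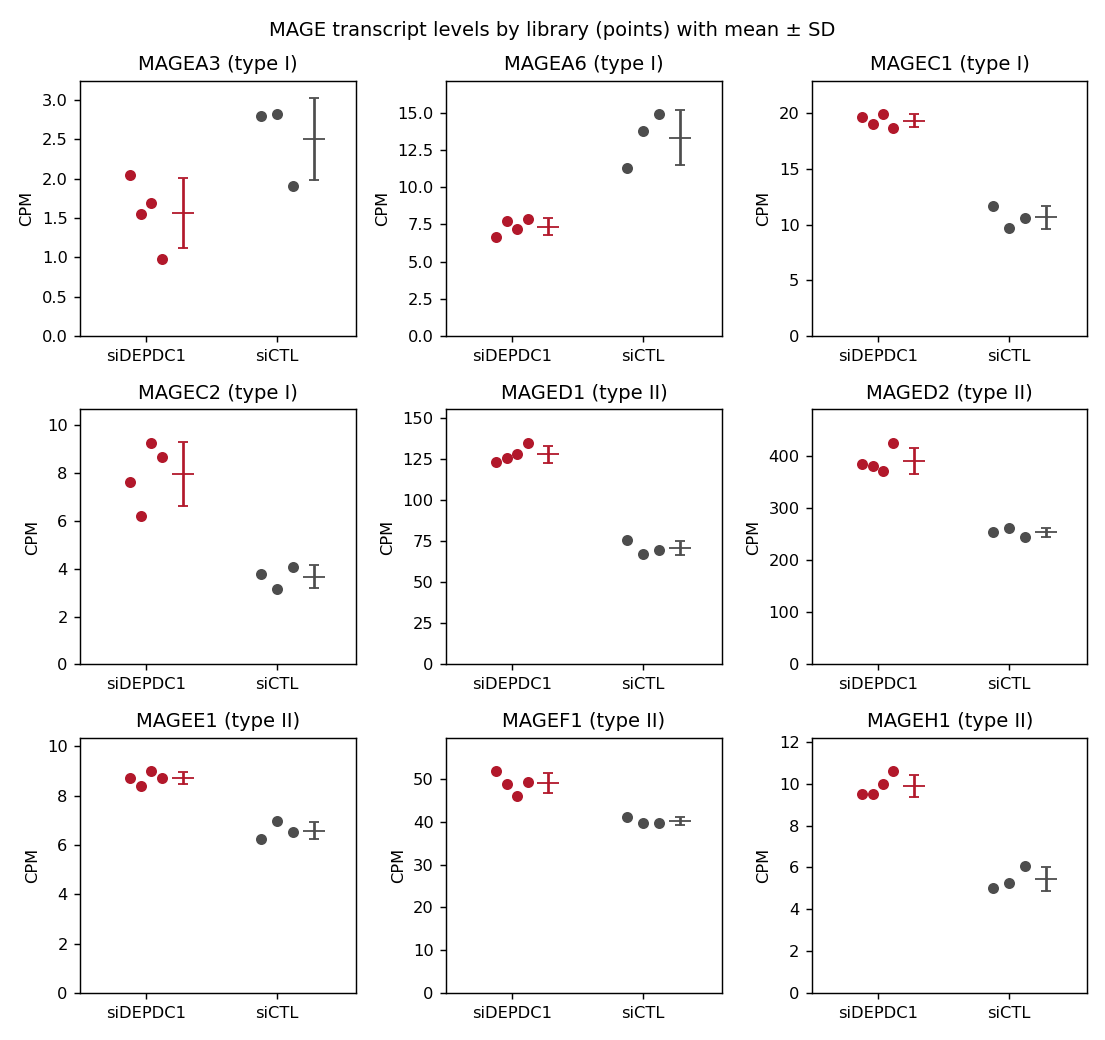
Levels of the 9 MAGE genes in CPM, each axis starting at 0, with 4 siDEPDC1 libraries on the left and 3 siCTL libraries on the right of each panel. Points are libraries and the bars beside them mean ± SD; the siDEPDC1 points lie below siCTL for MAGEA6, overlap with siCTL for MAGEA3 and lie above siCTL for the other 7 genes.

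Because the MAGEA and MAGEC pairs went opposite ways, the type I total differed less between groups than either pair did. The ratio of MAGEC1 plus MAGEC2 to MAGEA3 plus MAGEA6, in summed CPM, was 3.13, 2.71, 3.29 and 3.10 in siDEPDC1, against 1.09, 0.768 and 0.871 in siCTL. The MAGEC pair thus exceeded the MAGEA pair in every siDEPDC1 library, and in siCTL replicate 1 alone among the siCTL libraries. All 4 type I genes together summed to 36.0, 34.5, 38.0 and 36.2 CPM in siDEPDC1, against 29.6, 29.5 and 31.5 CPM in siCTL.

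**Figure D2:**
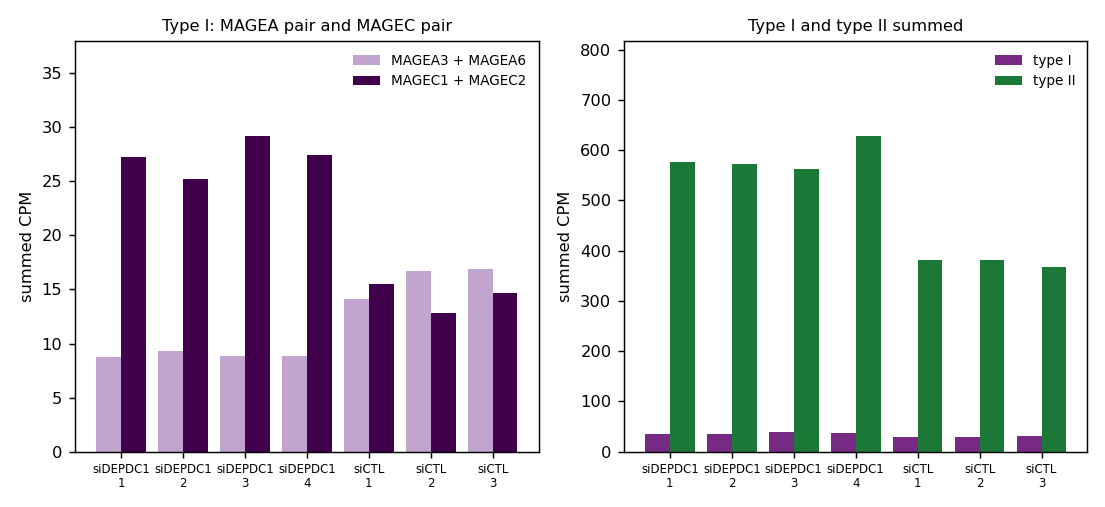
Summed CPM per library, siDEPDC1 replicates 1 to 4 followed by siCTL replicates 1 to 3. Left, the MAGEA pair (8.71 to 9.28 CPM in siDEPDC1, 14.1 to 16.9 in siCTL) and the MAGEC pair (25.2 to 29.2 in siDEPDC1, 12.8 to 15.5 in siCTL); right, the 4 type I genes and the 5 type II genes.

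MAGEA3 and MAGEA6 lie in the Xq28 cluster of MAGEA and CSAG genes, and the genes between them did not pass the test. The annotation lists 10 genes over the 71.0 kb that spans both, and 4 had enough counts to test. MAGEA12, a type I gene 35.0 kb from the start of MAGEA3, had 5.28, 3.76, 4.17 and 4.54 CPM in siDEPDC1, against 4.27, 4.00 and 3.65 CPM in siCTL. These ranges overlap, and its log2 fold change of 0.14 (SE 0.164, 95% interval -0.18 to 0.47) had an edgeR adjusted p of 0.53. CSAG1, a cancer-testis gene on the minus strand next to it, had a log2 fold change of -0.056 (SE 0.231, 95% interval -0.51 to 0.40, edgeR adjusted p 0.88). The 95% interval of MAGEA6, -1.08 to -0.62, does not meet either of these, while that of MAGEA3, -1.19 to -0.24, meets both; the differences themselves were not tested. The remaining genes of the interval, MAGEA2, MAGEA2B, CSAG2, CSAG3, the CSAG4 pseudogene that overlaps MAGEA12 and an unnamed antisense gene, had at most 3 counts in any library.

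**Figure D3:**
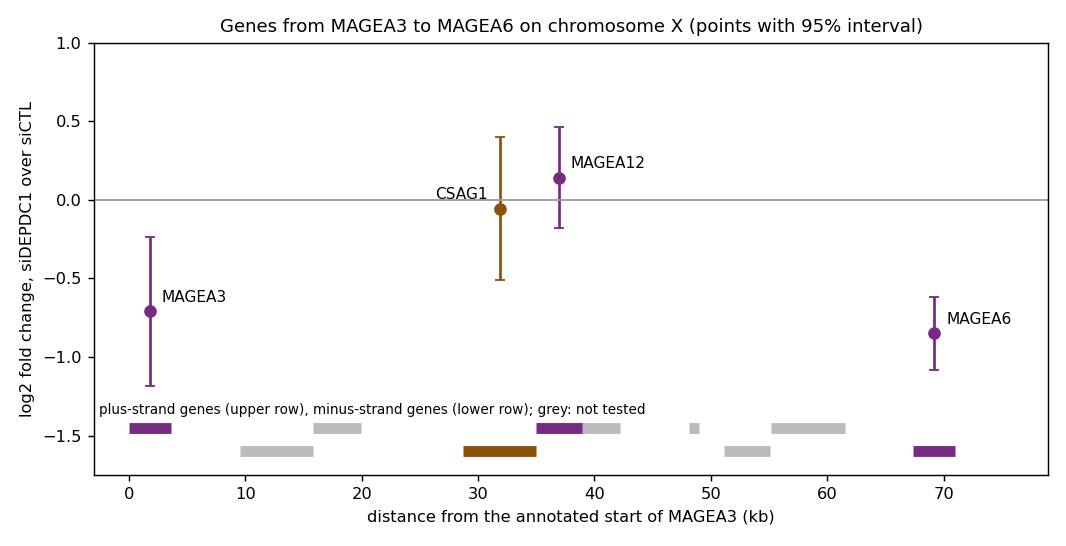
Log2 fold change (siDEPDC1 over siCTL, points with 95% interval) of the 4 tested genes from MAGEA3 to MAGEA6, against distance in kb from the annotated start of MAGEA3; bars below show annotated genes by strand. MAGEA3 and MAGEA6 at the ends lie below 0, and the intervals of CSAG1 and MAGEA12 between them include 0.

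All 5 type II genes rose. MAGED1, an adaptor also called NRAGE that binds the neurotrophin receptor NGFR and the ligase PJA1, lies at X:51803007-51902357 on the plus strand. It had 123, 126, 128 and 135 CPM in siDEPDC1, against 75.6, 67.2 and 69.4 CPM in siCTL, with no overlap. Means were 128 ± 5.12 CPM in siDEPDC1 and 70.7 ± 4.34 CPM in siCTL (SD), 1.81-fold higher (log2 fold change 0.85, SE 0.0611).

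MAGED2, the gene mutated in a transient antenatal form of Bartter syndrome (X:54807599-54816012, plus strand), was the most abundant of the 9. It had 384, 381, 370 and 425 CPM in siDEPDC1, against 253, 262 and 245 CPM in siCTL. The lowest siDEPDC1 library was well above the highest siCTL library. Means were 390 ± 24.0 CPM in siDEPDC1 and 253 ± 8.39 CPM in siCTL (SD), 1.54-fold higher (log2 fold change 0.62, SE 0.057).

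MAGEH1 (X:55452105-55453566, plus strand), a short MAGE protein reported to bind NGFR as MAGED1 does, had 9.49, 9.50, 10.0 and 10.6 CPM in siDEPDC1, against 5.01, 5.25 and 6.08 CPM in siCTL. Again the groups were apart. Means were 9.91 ± 0.529 CPM in siDEPDC1 and 5.45 ± 0.563 CPM in siCTL (SD), 1.82-fold higher (log2 fold change 0.87, SE 0.127). Against siCTL replicate 3 alone it was 0.70.

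MAGEE1 and MAGEF1 showed the smallest changes of the 9. MAGEE1 (X:76427724-76431353, plus strand), which has a repeated MAGE domain and is known to associate with dystrobrevin, had 8.71, 8.40, 8.99 and 8.73 CPM in siDEPDC1, against 6.26, 6.96 and 6.52 CPM in siCTL. The groups did not overlap. Means were 8.71 ± 0.242 CPM in siDEPDC1 and 6.58 ± 0.352 CPM in siCTL (SD), 1.32-fold higher (log2 fold change 0.40, SE 0.122). Its call was lost by DESeq2 (adjusted p 0.051), without siCTL replicate 1 in the edgeR fit (adjusted p 0.056) and against siCTL replicate 3 alone (edgeR adjusted p 0.16, log2 fold change 0.41).

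MAGEF1 (3:184710367-184712002, minus strand) is the only one of the 9 outside the X chromosome, and it is known to direct the ligase NSMCE1 to the iron-sulfur assembly factor MMS19. It had 51.8, 48.8, 46.1 and 49.3 CPM in siDEPDC1, against 41.2, 39.6 and 39.6 CPM in siCTL. The groups did not overlap. Means were 49.0 ± 2.35 CPM in siDEPDC1 and 40.2 ± 0.935 CPM in siCTL (SD), 1.22-fold higher (log2 fold change 0.29, SE 0.0685). Against siCTL replicate 3 alone the log2 fold changes were 0.88 for MAGED1, 0.67 for MAGED2 and 0.31 for MAGEF1.

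**Figure D4:**
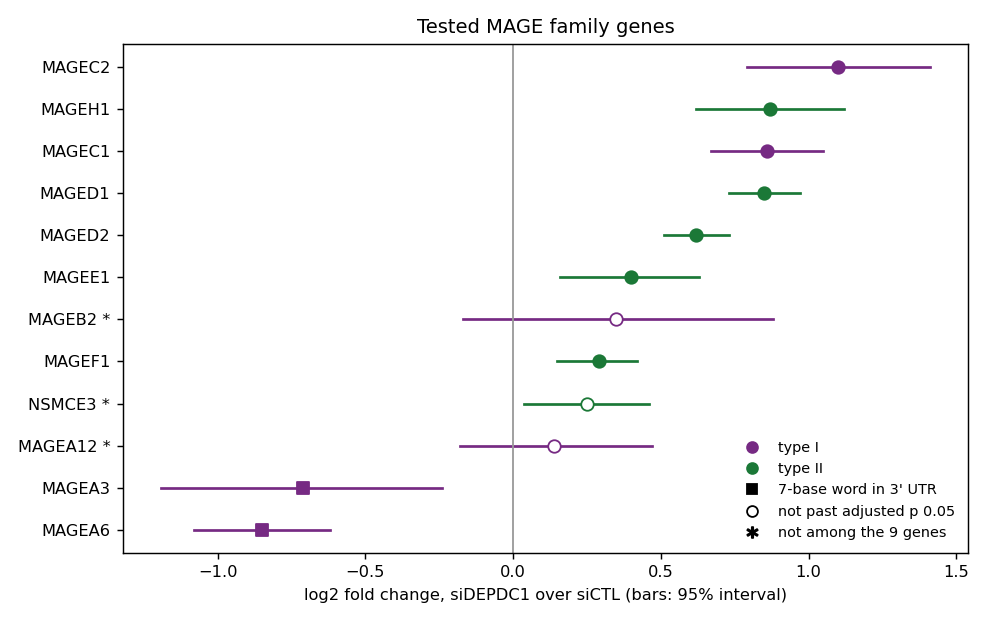
Log2 fold change (siDEPDC1 over siCTL) with 95% interval for the 12 tested MAGE family genes, purple for type I and green for type II, ordered by value. Squares mark the genes with the 7-base word in the kept 3' UTR, MAGEA3 and MAGEA6, which have the lowest values, -0.71 and -0.85; open symbols and asterisks mark MAGEA12, MAGEB2 and NSMCE3, which are not among the 9 genes and did not pass an adjusted p of 0.05.

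By count, 7 of the 9 genes rose, beside 16.5% of all tested genes, and 2 fell, beside 17.9%. The groups did not overlap for 8 of the 9, all except MAGEA3, beside 37.3% of all tested genes. Since the 9 were listed by this same contrast, these shares are not evidence about the family. The 4 type I genes split into 2 higher and 2 lower, with log2 fold changes of -0.85 to 1.10 and a median of 0.072. The 5 type II genes were all higher, with a median of 0.62 and a range of 0.29 to 0.87, while the median over all 16583 genes was 0.00094. The type I median was 0.55 below the type II median, as the difference -0.55, and it was -0.30, -0.56, -0.38 and -0.72 when siDEPDC1 replicates 1 to 4 were taken singly against the siCTL mean. That difference was not tested, because genes are not replicates of a condition, and it depends on MAGEA3. With at least 50 counts required, MAGEA3 is not tested and the difference turns to 0.24.

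The type II genes made up most MAGE transcripts in both groups. They summed to 577, 573, 563 and 628 CPM in siDEPDC1, against 381, 381 and 367 CPM in siCTL. The type I share of the CPM of the 9 genes was accordingly 5.88%, 5.67%, 6.33% and 5.45% in siDEPDC1, against 7.21%, 7.18% and 7.92% in siCTL, with every siDEPDC1 library below every siCTL library. All of the 9 genes except MAGEF1 are X-linked, and of the 523 tested genes of the X chromosome 18.9% rose and 15.9% fell, with a median log2 fold change of 0.03.

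Per kilobase of kept transcript, the place of MAGEA6 in the order of levels differed most between the groups. In siDEPDC1 the order was MAGED2 (178 CPM per kb), MAGED1 (44.5), MAGEF1 (30.0), MAGEH1 (6.78), MAGEC1 (4.53), MAGEA6 (4.17), MAGEC2 (3.98), MAGEE1 (2.40) and MAGEA3 (0.89). The library ranges of MAGEC1 and MAGEA6 overlapped there, as did those of MAGEA6 and MAGEC2, and other neighbours in the order did not. In siCTL the order was MAGED2 (116 CPM per kb), MAGED1 (24.6), MAGEF1 (24.6), MAGEA6 (7.59), MAGEH1 (3.73), MAGEC1 (2.49), MAGEC2 (1.84), MAGEE1 (1.81) and MAGEA3 (1.43). The ranges of MAGED1 and MAGEF1 overlapped in siCTL, and so did those of MAGEC2 and MAGEE1. MAGEA6 was thus the most abundant type I transcript per length in siCTL, and in siDEPDC1 it could not be separated from MAGEC1 and MAGEC2.

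No other gene of the family passed the test. MAGEB2, a type I gene known to act in RNA granules of the germ line, had a log2 fold change of 0.35 (SE 0.267, 95% interval -0.17 to 0.88, edgeR adjusted p 0.33). NSMCE3, a type II MAGE that is a subunit of the SMC5/6 complex, had 12.7, 11.3, 11.2 and 13.2 CPM in siDEPDC1, against 10.1, 10.1 and 10.4 CPM in siCTL. Its groups did not overlap, but its log2 fold change of 0.25 (SE 0.107) had an edgeR adjusted p of 0.070, and it passed only with library size alone (0.043) or the stricter count filter (0.047). The 25 family genes too low to test had at most 11 counts in a library, and 9 of them, among them MAGEA2, MAGEL2 and NDN, had 0 counts throughout. Since the counting of reads that fit more than 1 gene is not stated, 0 counts of a gene with near-copies, such as MAGEA2, need not mean absence of its RNA.

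Of 6 tested genes for the ubiquitin ligases that MAGE proteins bind, 5 ligases and the deubiquitinase USP7, 1 rose and none fell, beside 16.5% and 17.9% of all genes, and the median log2 fold change was -0.10. PJA1, the RING ligase partner of MAGED1, was the one that rose (0.25, SE 0.0807, edgeR adjusted p 0.014), with 23.2, 26.4, 24.9 and 26.7 CPM in siDEPDC1, against 20.9, 21.4 and 21.5 CPM in siCTL. This call was lost without siCTL replicate 1 (edgeR adjusted p 0.056), without siDEPDC1 replicate 2 (0.050) and against siCTL replicate 3 alone (0.24). TRIM28, the partner of MAGEA3, MAGEA6 and MAGEC2, had a log2 fold change of -0.062 (95% interval -0.17 to 0.05, edgeR adjusted p 0.43). NSMCE1, the partner of MAGEF1, was at -0.22 (edgeR adjusted p 0.074). TRIM31 was too low to test.

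Of 8 genes for proteins that MAGE complexes target or bind, 2 rose and 2 fell, beside 16.5% and 17.9% of all genes, with a median of -0.048. NGFR, the neurotrophin receptor bound by MAGED1, had 31.8, 32.2, 35.4 and 39.6 CPM in siDEPDC1, against 13.8, 13.0 and 13.1 CPM in siCTL. It was 2.61-fold higher (log2 fold change 1.38, SE 0.0898, edgeR adjusted p 1.5e-14). FBP1, a gluconeogenic enzyme that MAGEA3 and MAGEC2 complexes are reported to target, also rose (0.40, SE 0.0703, edgeR adjusted p 3.2e-05).

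PRKAA1, which encodes the AMPK alpha 1 subunit targeted by MAGEA3 and MAGEA6 with TRIM28, had 88.1, 84.6, 77.2 and 73.4 CPM in siDEPDC1, against 113, 116 and 121 CPM in siCTL. It fell without overlap (log2 fold change -0.53, SE 0.0627, edgeR adjusted p 3.1e-08), in the same direction as the MAGEA pair at the level of RNA. XIAP, an apoptosis inhibitor bound by MAGED1, fell too (-0.26, SE 0.0633, edgeR adjusted p 0.0017), and its kept 3' UTR carries GATAACT. MMS19, VPS35 and WASHC1 did not pass the test. Protein levels were not measured, so nothing here bears on their turnover.

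In the SMC5/6 complex, which holds NSMCE3, 1 of 6 genes fell and none rose, beside 17.9% and 16.5% of all genes, with a median of -0.063. SMC6, one of the paired ATPases, had 53.4, 51.5, 45.8 and 42.5 CPM in siDEPDC1, against 68.9, 68.6 and 78.4 CPM in siCTL (log2 fold change -0.57, SE 0.0729, edgeR adjusted p 1.3e-07). Its partner SMC5 had a log2 fold change of -0.075 (edgeR adjusted p 0.39).

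**Figure D5:**
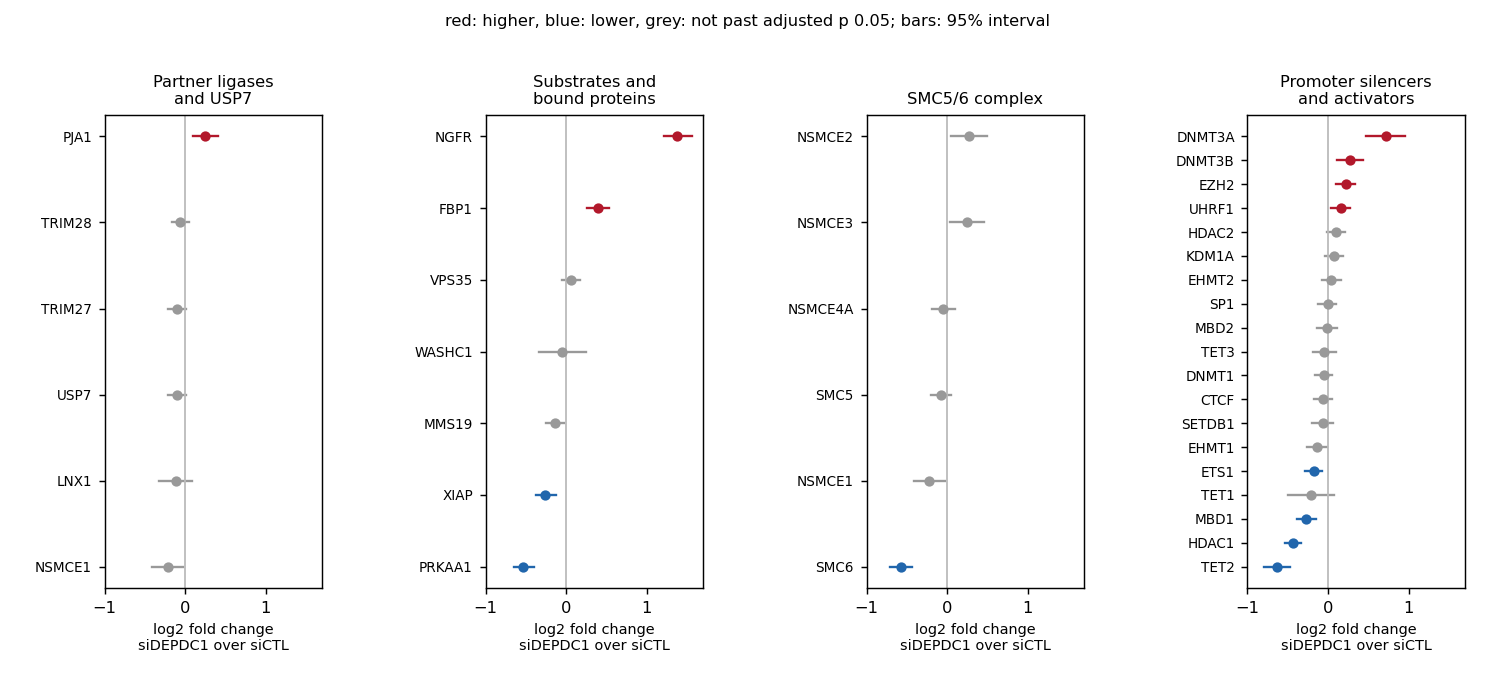
Log2 fold change (siDEPDC1 over siCTL) with 95% interval for the reported genes of 4 lists, red for genes that rose, blue for genes that fell and grey for genes not past an adjusted p of 0.05. NGFR at 1.38 is the highest value shown and TET2 at -0.63 the lowest.

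Of 45 other cancer-testis genes listed, 10 could be tested and 17 had 0 counts in every library. The limit on 0 counts of genes with near-copies holds here too. Of the 10, 3 rose and 2 fell, beside 16.5% and 17.9% of all genes, numbers too small to set the list apart, and the median log2 fold change was 0.054. PBK, a mitotic kinase, had 26.4, 31.0, 32.2 and 22.9 CPM in siDEPDC1, against 81.9, 89.4 and 89.7 CPM in siCTL (log2 fold change -1.63, SE 0.0798, edgeR adjusted p 7.1e-18). ATAD2, a bromodomain ATPase of dividing cells, fell as well (-0.43, SE 0.0586, edgeR adjusted p 4e-07) and carries the word in its kept 3' UTR. Both are expressed in dividing cells generally.

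The 3 that rose were the spindle checkpoint kinase TTK (0.27, SE 0.0681, edgeR adjusted p 0.0023), CT83 (0.48, SE 0.142, edgeR adjusted p 0.0081) and PAGE5 (0.19, SE 0.0654, edgeR adjusted p 0.022). CT83 and PAGE5 are X-linked cancer-testis antigens. The PAGE5 call was lost in 7 alternatives, among them the edgeR fits without siDEPDC1 replicate 2 (adjusted p 0.065), siDEPDC1 replicate 3 (0.059), siCTL replicate 1 (0.067), siCTL replicate 2 (0.076) and siCTL replicate 3 (0.050). The CT83 call was lost without siDEPDC1 replicate 2 (edgeR adjusted p 0.057), and against siCTL replicate 3 alone the TTK and CT83 calls were lost (edgeR adjusted p 0.081 and 0.050). SSX1, an X-linked cancer-testis gene, averaged 29.2 ± 0.195 CPM in siDEPDC1 (n = 4) and 26.1 ± 0.831 CPM in siCTL (SD, n = 3) without overlap, and at a log2 fold change of 0.16 it did not pass the test (edgeR adjusted p 0.089).

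Of 19 tested genes that silence or activate cancer-testis promoters, 4 rose and 4 fell, beside 16.5% and 17.9% of all genes, so the counts are near those shares, and the median log2 fold change was -0.049. DNMT3A, a de novo DNA methyltransferase, had 11.2, 10.8, 8.73 and 11.3 CPM in siDEPDC1, against 5.67, 7.22 and 6.43 CPM in siCTL (log2 fold change 0.72, SE 0.126, edgeR adjusted p 2.8e-05). DNMT1, the maintenance methyltransferase, had a log2 fold change of -0.052 (95% interval -0.16 to 0.055, edgeR adjusted p 0.49). DNMT3B (0.27), EZH2 (0.22) and UHRF1 (0.16), further writers and readers of silent chromatin, were the others that rose, with edgeR adjusted p of 0.010, 0.0047 and 0.047. The UHRF1 call was lost in 12 alternatives, including every fit that left out 1 library except that without siDEPDC1 replicate 1, with adjusted p up to 0.19 in those fits. That count holds the fit without siDEPDC1 replicate 4 again, as the fit of replicates 1 to 3 without a block. The EZH2 call was lost without siCTL replicate 1 (edgeR adjusted p 0.051), and against siCTL replicate 3 alone the DNMT3B and EZH2 calls were lost (0.071 and 0.28).

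TET2, which oxidises methylated cytosine, had 27.0, 21.9, 23.3 and 23.8 CPM in siDEPDC1, against 35.7, 35.0 and 40.7 CPM in siCTL. It fell (log2 fold change -0.63, SE 0.0812, edgeR adjusted p 1.5e-07), as did the histone deacetylase HDAC1 (-0.43, SE 0.0536, edgeR adjusted p 5.8e-08), the methyl-CpG binding protein MBD1 (-0.27, SE 0.0609, edgeR adjusted p 0.00062) and the activator ETS1 (-0.18, SE 0.0548, edgeR adjusted p 0.011). The ETS1 call was lost without siCTL replicate 1 (edgeR adjusted p 0.081), and against siCTL replicate 3 alone the ETS1 and MBD1 calls were lost (0.17 and 0.050). TET2 and MBD1 carry the word in the kept 3' UTR. So do 2 genes of this list that did not pass the test. HDAC2, with 2 copies, had a log2 fold change of 0.097 (edgeR adjusted p 0.19). TET1, with 1 copy, was at -0.21 (edgeR adjusted p 0.28). Promoter methylation was not measured.

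For each of the 8 genes with a mean of at least 5 CPM, the genes with the most similar profile were ranked by Pearson's r of log2 CPM over the 7 libraries, a description in which the siDEPDC1 and siCTL groups make up most of the spread. The closest were MYL12A (r = 0.994) for MAGEA6, ADORA2B (0.994) for MAGEC1, FBN1 (0.996) for MAGEC2, CHSY1 (0.998) for MAGED1, NDRG1 (0.998) for MAGED2, FAM168A (0.993) for MAGEE1, CEMIP2 (0.995) for MAGEF1 and PGPEP1 (0.994) for MAGEH1. No MAGE gene was among the first 2 for any of the 8. The second in line were NT5DC1, FGF1, CREB3L2, PAK6, H2BC5, HK2, SPEG and PTN in the same order, with r from 0.990 to 0.998.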

How the data were processed

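RNA sequencing of 7 libraries (4 siDEPDC1, 3 siCTL) used TruSeq RNA kits and paired reads of 100 bases, per the labels' protocols. The authors deposited raw counts per Ensembl gene and library, not normalized. Build GRCh38, FastQC, STAR 2.7.9a and DESeq2 are named in the submitters' processing notes. The sources used here do not name the counter, annotation release, strand setting or RNA selection. Without strand, reads from overlapping genes on opposite strands cannot be told apart. Of the 9 genes, MAGED1 and MAGED2 overlap other annotated genes, which had at most 3 counts in a library.

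Of 60675 identifiers, 60419 had a symbol and 58444 were in GENCODE 29, the source of coordinates, transcripts and 3' UTRs, with 1 transcript kept per gene. After edgeR's filterByExpr by group, 16583 genes remained, and group was the only term of the edgeR 4.0.16 quasi-likelihood fit (R 4.3.3, TMM, robust, two-sided, Benjamini-Hochberg). All 9 MAGE genes passed the filter. SE comes from the F statistic, and a 95% interval is 1.96 SE each way. The fit was tested on simulated data. Alternatives were DESeq2 size factors, library size alone, no filter, a filter of 50 counts, DESeq2 1.42.0, limma-voom 3.58.1, a replicate block, the same 6 libraries without that block, leaving out each library, summing MAGEA3 and MAGEA6, and siCTL replicate 3 alone, the last added after seeing the data. The 6 libraries without the block are the same fit as leaving out siDEPDC1 replicate 4. Replicates differed by more than sampling noise and none was a repeat deposit.

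The 9 genes and the 10 gene lists were chosen with earlier results of these data known. The text names all 9 genes, other tested MAGE genes, up to 4 called genes per list with the smallest adjusted p, and the 2 most alike genes by profile, with log2 of CPM plus 0.1. List genes named beyond that rule (those not called, PAGE5, DNMT3B, EZH2, UHRF1 and ETS1) were chosen after their values were seen. A few genes of the lists are not reported here.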

Additional observations from a re-analysis of the deposited data

Results flagged for a closer look

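In 40 sets of 4 siDEPDC1 libraries, 1 library stood far from the rest for ATAD2 and for DNMT3B, by Dixon's 95% criterion for 4 samples. ATAD2, a bromodomain ATPase in the list of other cancer-testis genes, had 146 CPM in siDEPDC1 replicate 4 against 168 to 172 CPM in the other siDEPDC1 libraries, a gap of 0.852 of the whole range. DNMT3B, a DNA methyltransferase, had 23.3 CPM in siDEPDC1 replicate 2 against 26.2 to 26.6 CPM in the others, a gap of 0.860 of the range. Chance flags about 1 in 20 such sets. None of the 9 MAGE genes met that criterion in siDEPDC1, and siCTL, with 3 libraries, was not examined.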

How the results depend on the processing

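Over 17 alternatives, none of 618 values turned its direction, for 37 genes (all tested MAGE genes and the called list genes named): 565 kept their side of the threshold, 51 were no longer past it and 2, both of NSMCE3, came past it. These totals count 1 fit under 2 names. Leaving out siDEPDC1 replicate 4 is the same fit as the 6 libraries numbered 1 to 3 without a block. UHRF1 (12), MAGEA3 (8 of the 15 that tested it), PAGE5 (7) and CD14 (7) were among those that lost most calls. For UHRF1, MAGEA3 and CD14 the losses include that fit under both names. MAGEA6, MAGEC1, MAGEC2, MAGED1, MAGED2, MAGEF1 and MAGEH1 kept their calls in all alternatives that tested them, and MAGEE1 lost its call in 3. The count of MAGE genes called lower, 2 in the edgeR fit of all libraries, was 1 with the filter of 50 counts, by DESeq2 and against siCTL replicate 3 alone, in each case through MAGEA3, and 1 to 2 when a library was left out. The count called higher was 6 to 7 when a library was left out. The type I minus type II difference was 0.24 with the filter of 50 counts, where MAGEA3 was not tested, against -0.55, and -0.61 to -0.41 when a library was left out. MAGEA3 plus MAGEA6 ran from -0.91 to -0.79. Over all genes, 2462 to 3159 were called lower and 2132 to 2981 higher when a library was left out, and 1802 lower and 1408 higher against siCTL replicate 3 alone, where fewer samples were used and that lone library is assumed to vary like the others.

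Same-numbered libraries did not deviate together more than others did. Their correlations were -0.109, -0.0416 and 0.00547, within the -0.168 to 0.106 of differently numbered pairs. The labels do not say whether same-numbered libraries were handled together, and these values cannot settle it. With the replicate block on numbers 1 to 3 the count of MAGE genes called lower was 1, as it was without the block on the same 6 libraries. MAGEA3 then had an edgeR adjusted p of 0.11 with the block and 0.098 without it. UHRF1 (0.096 with, 0.055 without) and CD14 (0.15 with, 0.11 without) also lost their calls either way. PJA1 (0.063 with, 0.031 without) and ETS1 (0.053 with, 0.023 without) lost theirs with the block alone. At 11 to 43 counts a library, depth limits what can be said of MAGEA3.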
